A study of Homo sapiens with 2 samples.

Results

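APP and ZNF395 are 2 genes whose transcripts are known as targets that TARBP2 destabilises in metastatic breast cancer cells. The list of TARBP2-bound regions was examined for both. A region was taken as a member when it overlapped the hg19 interval of either gene by at least 1 nt on the strand of the gene. This gave 4 members of 23412 listed regions, 2 in APP and 2 in ZNF395. The other strand held 1 region in APP and 0 in ZNF395. All 4 members lay in introns of the gene they were assigned to, and no exonic share over the whole list was counted.

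The regions come from MDA-LM2, a lung-metastatic derivative of a human breast cancer line. The cells had received a myc-tagged TARBP2 vector by transient transfection. The cells were UV cross-linked 48 hours later, and RNA cross-linked to the tagged protein was recovered with an anti-myc antibody and sequenced (HITS-CLIP). The protein whose RNA was recovered was thus the tagged one made from the vector. The study held 1 group of 2 replicates, and its processed data were 1 list of stranded regions for the group. No untreated or control library and no value per replicate entered the results below. Each region had a score of 1, so neither a replicate error nor the depth behind a region can be given, and no test was run. Expression values were not used, so the cell line was not checked against markers.

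TARBP2 binds double-stranded RNA. It is best known as a partner of Dicer, the nuclease that cuts microRNA precursors, and it can also bind hairpins in other RNAs. APP encodes the amyloid precursor protein, a membrane protein that is cut by secretases and is known for its part in Alzheimer's disease. ZNF395 encodes a zinc finger transcription factor. Since introns are removed during splicing, a region in an intron marks RNA of the unspliced transcript or of an excised intron, or of another RNA made from the same strand.

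APP occupies positions 27252861 to 27543138 of chromosome 21 on hg19, is transcribed from the minus strand, and spans 290.3 kb. The member nearer its 5′ end was 249 nt long, at chr21:27507988-27508236. It began 34902 nt from the 5′ end of the gene, and its midpoint lay at 12.1% of the gene's length. The other member was 540 nt long, at chr21:27315369-27315908, and its midpoint lay at 78.4% of the gene's length. The APP members were 192.1 kb apart, against a median gap of 104.2 kb between neighbouring regions on the minus strand of chromosome 21, where 60.2% of gaps were shorter. Together they covered 789 nt, or 0.272% of the gene.

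Positions relative to exons were read from GENCODE 29, an annotation of GRCh38, moved to hg19 by 1 constant shift per gene. In APP-201, the annotated principal transcript with 18 exons, the 249 nt member lay in intron 1, between exons 1 and 2. This intron is 58.4 kb long and is the longest of the 17 introns. The member was 34638 nt from exon 1 and 23530 nt from exon 2. The 540 nt member lay in intron 13, which is 42.6 kb long and ranks 2 by length. It was 10992 nt from exon 13 and 31095 nt from exon 14. The APP members therefore lay in the 2 longest introns, which make up 20.1% (intron 1) and 14.7% (intron 13) of the gene. Exons of all 17 annotated APP transcripts together make up 2.13% of the interval, so most of the gene's length is intronic in any case.

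Some of the other transcripts have exons closer to the members. For the 249 nt member the nearest annotated exon was exon 1 of APP-209, at 4227 nt. For the 540 nt member it was exon 11 of APP-210, at 1926 nt. None of the 17 APP transcripts had a member in an exon, and 8 of them spanned both members. The shift was set by the 3′ end of the gene. It could not be checked at the 5′ end, because none of the 5 annotated 5′ ends tried in GRCh38 gave the same shift: they differed from it by 40 to 301 nt. The distances to APP exons given here hold for the shift by the 3′ end and would change by these amounts under the others. The differences are smaller than the distances to the nearest exons, and with each of the 5 shifts the number of exonic APP members was 0.

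The 540 nt member was also the only one that touched an annotated small RNA gene. RNU6-123P, a U6 small nuclear RNA pseudogene on the same strand, lies in the same intron of APP. U6 is an RNA component of the spliceosome with many copies in the genome. At the shift used, 88 nt of the 102 nt of RNU6-123P (86.3%) fell within the member, at its 3′ end. With 4 of the 5 other shifts all 102 nt fell within it, and with the remaining shift, set by the 5′ end in RefSeq, the gene lay 213 nt outside it. These 5 shifts come from different annotated 5′ ends and cannot all be right, so the number that gave an overlap carries no weight. The sources used here do not say how reads with several possible alignments were treated, and whether reads of other U6 copies entered this region was not tested. No microRNA hairpin of RefSeq lay within APP (0) or within ZNF395 (0).

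ZNF395 occupies positions 28203102 to 28243977 of chromosome 8 on hg19, is also transcribed from the minus strand, and spans 40.9 kb. Its members were 327 nt long, at 28233346 to 28233672, and 227 nt long, at 28220486 to 28220712. The 327 nt member was the nearer to the 5′ end, 10305 nt from it, with its midpoint at 25.6% of the gene's length. The midpoint of the 227 nt member lay at 57.2%. The ZNF395 members were separated by 12633 nt. The median gap on the minus strand of chromosome 8 was 53.5 kb, and 32.7% of gaps there were shorter than 12633 nt. Both members had to lie in a gene of 40.9 kb, so their gap could not have reached that median. Together they covered 554 nt, or 1.36% of the gene.

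Both ZNF395 members lay in intron 1 of ZNF395-201, a principal transcript with 10 exons. This intron is 25.2 kb long, the longest of the 9 introns, and makes up 61.7% of the gene. The 327 nt member was 10237 nt from exon 1 and 14646 nt from exon 2, and the 227 nt member was 23197 nt from exon 1 and 1786 nt from exon 2. The nearest exon in any ZNF395 transcript was exon 2 of ZNF395-205, 446 nt from the 327 nt member. None of the 11 annotated transcripts had a member in an exon, and 7 of the 11 spanned both members. Exons make up 14.1% of the interval, so with 2 members a count of 0 in exons shows no preference for introns. The shift set by the 3′ end was the same as that set by the 5′ end of the RefSeq gene, and it differed by 6 nt from that set by ZNF395-201. The annotated span of the neighbouring gene FBXO16, which encodes an F-box protein, overlaps 38174 nt of the interval on the same strand. It also overlaps both ZNF395 members. The ZNF395 members could therefore also belong to RNA of FBXO16, and the overlap of spans alone does not tell the 2 genes apart. Which gene the members came from was not tested. The positions given here are relative to exons of ZNF395, not to those of FBXO16.

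**Figure D1:**
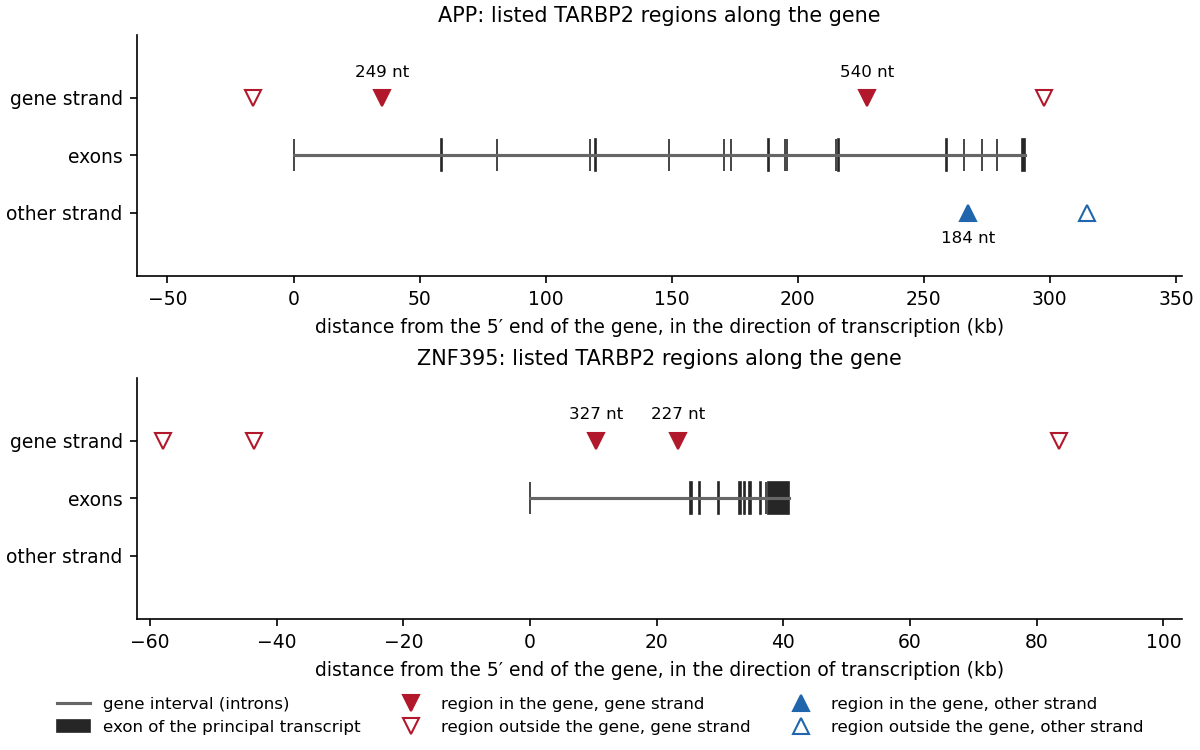
Listed TARBP2 regions along APP (top) and ZNF395 (bottom), by distance from the 5′ end of the gene in kb. Filled triangles are regions in the gene and open triangles regions outside it, on the gene strand (above) or the other strand (below), dark boxes are exons of APP-201 or ZNF395-201, and triangles mark midpoints. The 4 members on the gene strand sit between exons, and both ZNF395 members sit in the longest intron.

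With 0 of 4 members in exons, the 95% exact Clopper-Pearson interval allows an exonic share of up to 60.2%, so these genes alone say little about how TARBP2 regions divide between exons and introns. This limit covers counting error only. The members of 1 gene share a transcript and are not independent.

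The 1 region on the other strand of APP was 184 nt long, on the plus strand at chr21:27275534-27275717. Only 4.95% of listed regions were shorter. It lay opposite intron 15 of APP-201, 1617 nt from exon 15 and 5549 nt from exon 16. GENCODE 29 has 2 plus-strand genes that overlap the APP interval, AP001442.1 and AP001439.1, and this region overlapped neither at the shift used. On chromosome 21 as a whole, 119 listed regions were minus-strand and 87 plus-strand. On chromosome 8 the numbers were 612 minus-strand and 322 plus-strand, and the plus-strand regions nearest to ZNF395 lay 144.0 kb beyond its 5′ end and 994.6 kb beyond its 3′ end.

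The members ranged from 227 to 540 nt in length. The 540 nt member of APP was longer than most regions, since 88.2% of the list were shorter. The 249 nt member of APP had the most common length of the list, which 19.7% of regions share. In ZNF395, the 327 nt member was longer than 69.6% of listed regions and the 227 nt member was longer than 13.3%. The median over the 4 members was 288 nt, and that of the list was 253 nt, with quartiles of 248 and 374 nt.

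None of the 4 members had another listed region on its strand within 10 kb, whereas 44.8% of the regions on chromosomes 1 to 22 and X did. The ZNF395 members were each other's nearest neighbours, at 12633 nt, and 47.7% of regions had a nearer one. As both had to lie in a gene of 40.9 kb, this distance was bounded by the choice of members. Each APP member was closer to a region outside the gene than to the other APP member. The nearest region to the 249 nt member was 51036 nt away, beyond the 5′ end of APP, and the nearest to the 540 nt member was 69639 nt away, beyond the 3′ end. A nearer neighbour was found for 66.5% of listed regions in the case of the 249 nt member and for 71.1% in the case of the 540 nt member.

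**Figure D2:**
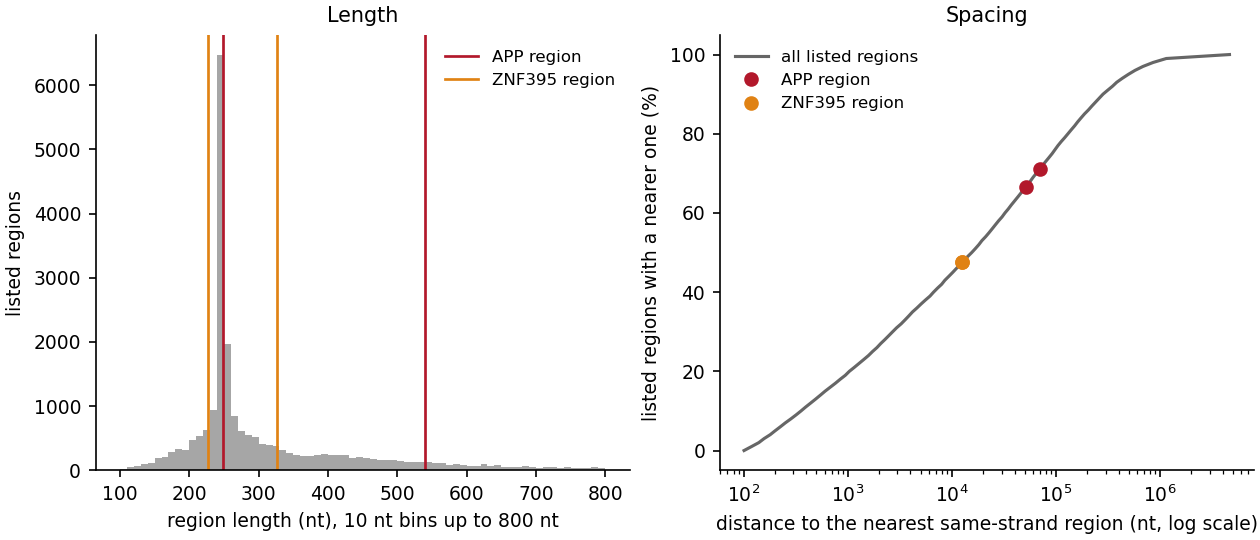
Left, number of listed regions by length in nt (bins of 10 nt, lengths of 800 nt and more not drawn), with the lengths of the APP and ZNF395 members as vertical lines. Right, percentage of listed regions that have a nearer same-strand neighbour, by distance in nt on a log axis, with the members as points (both ZNF395 members fall on 1 point at 12633 nt). The 540 nt member stands to the right of the main peak of lengths, and the APP members lie further along the spacing curve than the ZNF395 members. The distance between members of the same gene is limited by the length of the gene.

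The number of regions in each gene was set against windows of the same length placed end to end on the minus strand of its chromosome, between the first and the last listed region. Of 131 windows of APP length on chromosome 21, 21.4% held at least 2 regions, and 55% held 0. Over the minus strand of chromosomes 1 to 22 and X the share with at least 2 was 24.4%. A count of 2 regions was thus not rare for a stretch as long as APP. Of 3569 windows of ZNF395 length on chromosome 8, 2.27% held at least 2 regions, and 88.6% held 0. Over chromosomes 1 to 22 and X the share was 3.07%. Among windows with at least 1 region on the minus strand of chromosome 21, 47.5% of those of APP length held 2 or more. On the minus strand of chromosome 8, 19.9% of such windows of ZNF395 length did. Windows include stretches without genes, whereas APP and ZNF395 are genes, so these shares describe the list and do not show that either gene stands apart from other genes.

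Per length, ZNF395 held more regions than APP, which follows from its shorter length, since each gene held 2. Gene-strand regions numbered 0.689 per 100 kb in APP, against 0.310 on the rest of the minus strand of chromosome 21. They numbered 4.89 per 100 kb in ZNF395, against 0.418 on the rest of the minus strand of chromosome 8. Each of these gene values rests on 2 regions. The rest of each strand includes stretches without genes, so these values do not show that either gene stands apart from other genes.

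**Figure D3:**
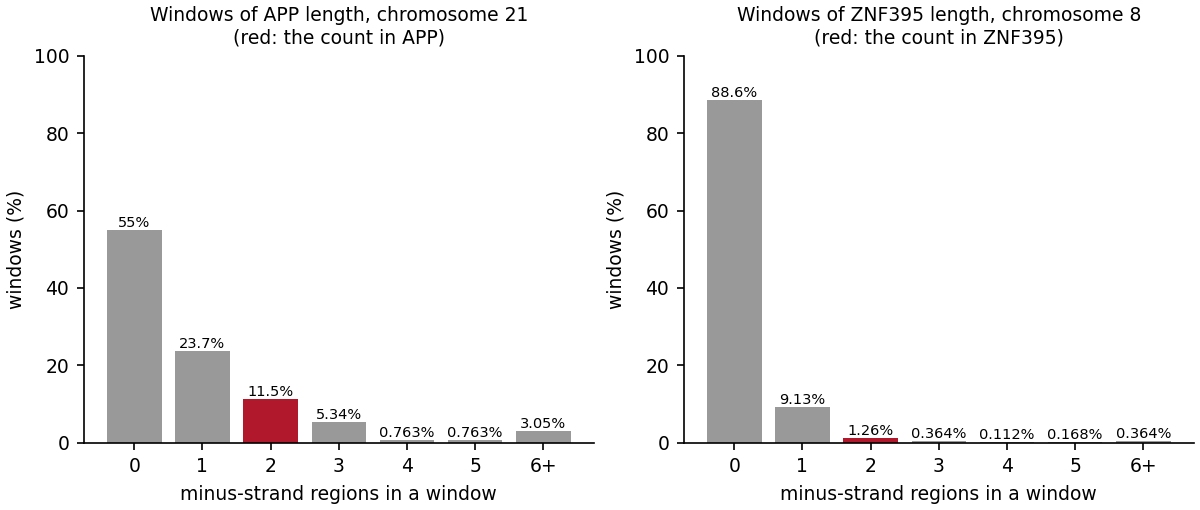
Percentage of windows by the number of minus-strand regions they hold, for windows of APP length on chromosome 21 (left) and of ZNF395 length on chromosome 8 (right). The bar at the count found in the gene is red: 2 regions lie in the upper part of both distributions, and further up in that of ZNF395, where 88.6% of windows hold 0.

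The minus-strand regions nearest to APP outside it were a 249 nt region 7131 nt beyond its 3′ end (chr21:27245481-27245729) and a 172 nt region 16134 nt beyond its 5′ end (chr21:27559273-27559444). These were also the only minus-strand regions within 500 kb of either end, 1 on each side, or 0.2 per 100 kb against the 0.310 of the chromosome strand outside APP. The protein-coding genes next to APP in GRCh38 are GABPA beyond the 3′ end, which encodes a subunit of a transcription factor, and CYYR1 beyond the 5′ end, and CYYR1 is the one on the minus strand. Around ZNF395, the nearest minus-strand regions lay 42.5 kb beyond the 3′ end and 43.4 kb beyond the 5′ end. Within 500 kb there were 2 minus-strand regions beyond the 3′ end (0.4 per 100 kb) and 4 beyond the 5′ end (0.8 per 100 kb). How many of these lie in FBXO16 was not counted. The chromosome strand outside ZNF395 held 0.418 per 100 kb.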

How the data were processed

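Per the submitters' processing notes, the aligner was Bowtie and the build hg19. The Bowtie version, how regions were called and filtered, and how the 2 replicates were combined are steps not given in the sources used. The authors deposited 1 list of regions with a score of 1 for each, which carries no height. Coordinates were deposited with 0-based starts and are printed 1-based. The labels do not say whether separate cultures were used for the replicates.

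The members, lists and windows were chosen with earlier results of these data known. The hg19 interval of each gene was taken as given, and a region was counted with an overlap of at least 1 nt. No hg19 genome or annotation was used here, so no region sequence was read and no other gene was counted. The planned genes (TARBP2, the APP family, the enzymes that cut APP, and relatives of ZNF395) and GC content were not analysed. Named genes were APP, ZNF395 and genes that overlap or neighbour them. RNU6-123P was named after its overlap had been seen. A sequence comparison is not reported here.

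Exons came from GENCODE 29 (GRCh38), moved by the distance between the 3′ ends of each gene in the 2 builds. The plan required both ends to give the same shift. ZNF395 met this with its RefSeq 5′ end. APP did not, and its distances to exons are given at the shift by the 3′ end, with the exonic count and the RNU6-123P overlap also at the others. The principal transcript was the longest one with a principal tag. Counting was tested on simulated data. Intervals are 95% exact Clopper-Pearson and cover counting error only. Python 3.11.15, numpy 2.4.6, pandas 2.3.3, scipy 1.17.1 and matplotlib 3.10.9 were used.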

Additional observations from a re-analysis of the deposited data

How the results depend on the processing

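Of 36 alternative settings, 28 kept a count within 1.5 times or a share within its 95% interval. These 28 include settings that could not have moved, such as stricter overlap rules where the main count was already 0. The members of APP numbered 1 without regions of the most common length and 1 when shorter regions than the median were dropped. Those of ZNF395 numbered 1 in that setting. By construction these settings drop short regions or those of 249 nt. With the interval widened by 10 kb, APP had 3 regions and ZNF395 2. The number of exonic members was 0 in every setting tried, including the other shifts, which were chosen after the data had been seen. None of these settings could have raised it. The main rule already counted any overlap with an exon of any transcript of the gene. The shifts differed by less than the distance to the nearest exon. The share of windows of APP length with at least 2 regions was 12.2% on the plus strand and 47.5% among windows with at least 1 region, against 21.4%. For ZNF395 length it was 1.04% on the plus strand, 3.07% over chromosomes 1 to 22 and X, and 19.9% among windows with at least 1 region, against 2.27%. The comparison with annotated genes of hg19 was not run. No paired analysis was possible because the study has a lone group and its regions are not tied to replicates, and for this reason neither replicate could be left out. Depth is unknown, so regions could not be weighed by it.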

Other observations

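The region names hold numbers that rise with position on all 47 combinations of chromosome and strand, up to 155642, and 15.0% of the numbers up to this are listed. Between the 2 APP members, numbered 79701 and 79715, 13 numbers are not among the regions analysed here. If the numbers follow position throughout, as they do for the listed regions, these 13 would fall within APP on its own strand. Between the listed regions that flank APP on its strand there are 23 numbers, of which 2 (8.70%) are listed, against 10.6% on the minus strand of chromosome 21. For ZNF395, 3 numbers fall between the members, and 2 of the 12 numbers between the flanking regions (16.7%) are listed, against 13.6% on the minus strand of chromosome 8. The sources used here do not say what the other numbers stand for or what set them apart. The count of 2 regions per gene is therefore a count of this list, and no measure of all binding in the gene.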
